A study of Mus musculus with 47 samples.

Results

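The genes described here encode extracellular matrix proteins of fibroblasts and the enzymes that cross-link them. They are the glycoproteins Fn1, Tnc, Postn and Sparc, the small leucine-rich proteoglycans Bgn, Dcn and Lum, the glypican Gpc3, and the lysyl oxidases Lox and Loxl1. The 10 genes were chosen by symbol, and each had 1 row among the 22632 genes of the deposited table. They were measured by mRNA sequencing in 47 libraries of mouse cells in 12 groups. All but the 3 feeder libraries were secondary reprogramming cells, that is mouse embryonic fibroblasts (MEFs) in which doxycycline switches on reprogramming, followed as 4 SC and 4 SI clones. Neither abbreviation is spelled out in the sample labels, while the series title speaks of stabilization competency. Each clone is 1 line sampled repeatedly, so a class of clones is 4 lines. Both classes were sampled after 14 and 21 days with doxycycline (d14, d21), after 21 days with it and 1 or 2 without (d22, d23), and after 27 days with it (d27). SC clones were also sampled as iPS cells, after 21 days with doxycycline and 6 without. The 3 feeder libraries are MEFs that had no doxycycline, and no strain, age or transgene is given in the labels for any group.

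Fibroblasts build the matrix around them by secreting collagens together with glycoproteins and proteoglycans that organise the fibres. Fibronectin (Fn1) is assembled into fibrils that cells hold through integrins. Tenascin C (Tnc), periostin (Postn) and osteonectin (Sparc) are matricellular proteins that modify cell adhesion and collagen assembly. Biglycan (Bgn), decorin (Dcn) and lumican (Lum) bind collagen fibrils, and decorin and biglycan also bind growth factors of the TGF-beta family. Lysyl oxidase (Lox) and its relative Loxl1 oxidise lysines in collagen and elastin so that the fibres cross-link. Glypican-3 (Gpc3) differs from the rest: it is a heparan sulfate proteoglycan anchored to the cell surface, known as an embryonic gene that modulates Hedgehog and Wnt signals. Loss of mesenchymal matrix genes is a known early step of reprogramming from fibroblasts to pluripotent cells.

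Promoter sequence is shown for the 5 genes for which a window was taken from the RefSeq promoter table, because the values below set Gpc3 against the other 9. The search left out a chromosome, so a gene without a window is not shown to lack an entry. Where a gene had several annotated starts, the one farthest upstream was taken. The 80 bases before that start are printed 5′ to 3′ on the gene's strand, with matches to the GC box GGGCGG on either strand in capitals. The build is GRCm38.p6, which is not the mm9 named for these data. The windows are chrX:73483521-73483600 (plus strand) for Bgn, chrX:52613975-52614054 (minus) for Gpc3, chr3:54359187-54359266 (plus) for Postn, chr11:55420081-55420160 (minus) for Sparc and chr4:64047016-64047095 (minus) for Tnc.
Bgn: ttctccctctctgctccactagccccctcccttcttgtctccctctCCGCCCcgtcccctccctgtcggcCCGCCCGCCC
Gpc3: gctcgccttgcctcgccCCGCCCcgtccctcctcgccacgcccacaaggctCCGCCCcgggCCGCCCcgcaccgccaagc
Postn: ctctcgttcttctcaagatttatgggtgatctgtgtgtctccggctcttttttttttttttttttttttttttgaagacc
Sparc: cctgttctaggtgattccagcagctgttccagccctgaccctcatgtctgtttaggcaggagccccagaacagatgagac
Tnc: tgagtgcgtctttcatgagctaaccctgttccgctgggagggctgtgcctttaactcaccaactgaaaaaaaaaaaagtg
Over the 250 bases before the start, Gpc3 held 25 CpG dinucleotides, against 7 in Bgn, 8 in Tnc, 4 in Sparc and 3 in Postn, and a median of 6 over 32851 promoters. The GC box was matched 3 times each in Bgn and Gpc3 and once in Tnc, and 32.7% of all promoters hold at least 1 match. TATAA on either strand was matched 1 time, in Tnc, and occurs in 22.8% of promoters. The AP-1 motif TGANTCA was not matched in any of the 5 and occurs in 6.75%. A match is a run of letters and not a measured binding site.

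Expression is given in RPKM, a read count divided by the gene's length and by the library's depth. It allows for gene length and depth but not for differences in the libraries' RNA composition, so comparisons between libraries are approximate. Factors for rescaling the libraries to a common median ran from 0.864 (SC2 iPS) to 1.09 (SI2 d22). The libraries' RPKM summed to between 189172 and 245695, and 10909 to 11931 genes reached 1 RPKM. In 40 libraries the spacing of low values fitted a depth between 31.5 and 100.4 megareads, with a median of 69.2, or a multiple of it. The lowest value of any of the 10 genes, 3.48 RPKM for Lum in clone SI1 at d21, would then rest on about 268 reads at the lowest of those depths. The feeders expressed all 8 fibroblast markers examined (Thy1, Pdgfra, Pdgfrb, Prrx1, Twist2, Col1a1, Col1a2, Col3a1), with sums of 3338 to 3584 RPKM, and had all 7 pluripotency markers under 1 RPKM. In the iPS libraries the pluripotency markers summed to between 639 and 1087 RPKM, while the fibroblast markers still summed to between 284 and 715. As a median ratio to the feeder mean, the fibroblast markers stood at 0.102 to 0.272 in iPS libraries, with 0.272 in clone SC2. At SI d23 the ratio was 0.45 to 0.535 in clones SI1, SI2 and SI4 and 1.09 in SI3. Clones SC2 (at d23 and iPS) and SI3 (at d21, d22 and d23) stood apart in this way, and results that rest on them are given with and without them. The median ratio of 4 Y-linked genes (Ddx3y, Eif2s3y, Kdm5d, Uty) to the feeder mean also varied between times in both clones. In SI3 it was 0.54, 0.952 and 1.13 at d21, d22 and d23 and 0.244 at d27, beside fibroblast ratios of 0.464, 0.918, 1.09 and 0.199. In SC2 it was 0.168 at d21, 0.449 at d23 and 0.499 in iPS, beside 0.214, 0.468 and 0.272. The part of these genes in the results was not tested.

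In the feeders, Fn1, Tnc, Sparc and Bgn had the highest levels of the 10 genes. Fn1 read 1546, 1870 and 1791 RPKM in the 3 feeder libraries, Tnc 1243, 1369 and 1390, Sparc 1107, 1024 and 986, and Bgn 1135, 1157 and 1090. Lox followed at 685, 618 and 664 RPKM and Loxl1 at 108, 119 and 115. Dcn, Postn and Lum were lower in these cultured fibroblasts, with feeder means of 80.4 ± 8.04, 49.9 ± 1.99 and 33.8 ± 4.76 RPKM (SD, n = 3). Gpc3 was the lowest, at 5.17, 4.87 and 5.18 RPKM.

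**Figure D1:**
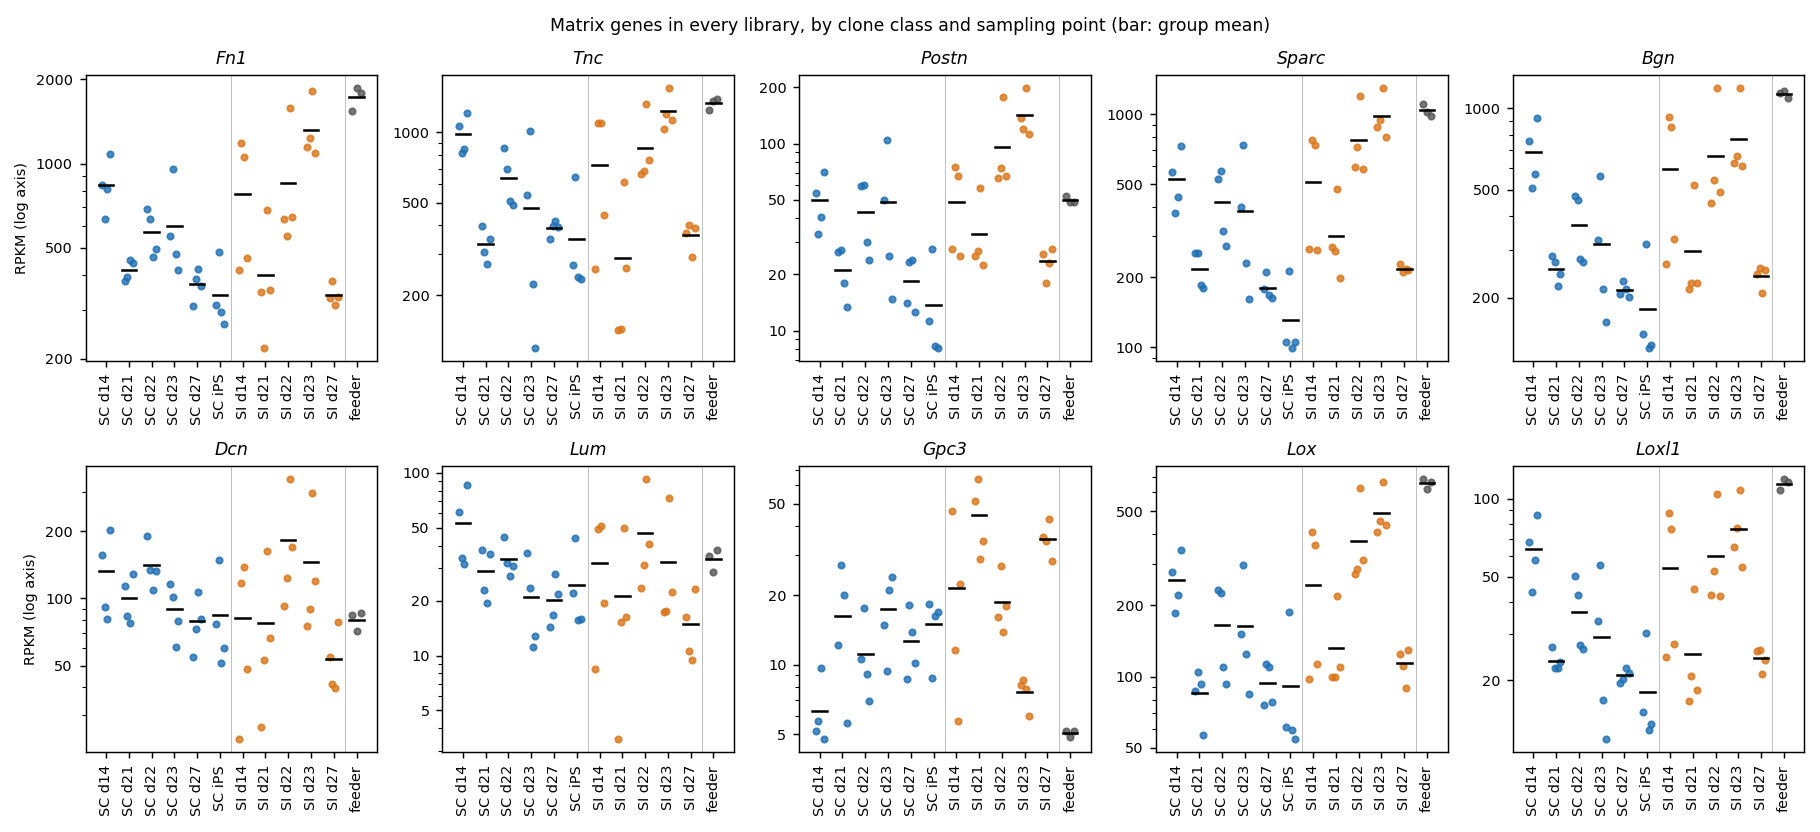
RPKM (log axis) of each gene in every library, by group on the horizontal axis; points are libraries (SC blue, SI orange, feeder grey) and black bars are group means. Fn1, Tnc, Sparc, Bgn, Lox and Loxl1 are high in feeders and lowest near d21, d27 and iPS, Dcn and Lum overlap the feeders in most groups, and Gpc3 is lowest in the feeders.

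In iPS cells, 7 of the 10 genes were lower than in feeders, Gpc3 was higher, and Dcn and Lum did not pass the test. The test was limma on log2(RPKM + 1) with Benjamini-Hochberg adjustment over all genes and a threshold of 0.05, which is used throughout. Sparc read 105, 212, 99.4 and 105 RPKM in clones SC1 to SC4, or 12.5 ± 5.24% of the feeder mean, and was lower by log2 -3.06 ± 0.26 (SE; adjusted p = 1.42e-05). Lox read 61.5, 188, 59.7 and 54.4 RPKM, 13.8 ± 9.88% of feeders (log2 -3.05 ± 0.40, adjusted p = 0.000118). Fn1 read 311, 481, 293 and 266 RPKM, 19.5 ± 5.60% of feeders (log2 -2.39 ± 0.22, adjusted p = 1.91e-05). All iPS libraries lay below all feeder libraries for these 3 genes, with SC2 the highest iPS clone each time. The share of all genes set apart in this way was not computed. Bgn, Loxl1, Tnc and Postn were lower by log2 -2.73, -2.68, -2.07 and -1.96, with adjusted p from 2.70e-05 to 0.000961. These are mixed cultures read in bulk, so fewer fibroblasts and less RNA per fibroblast cannot be told apart, here or below.

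Gpc3 and the proteoglycans Dcn and Lum made the exception. Gpc3 read 18.3, 8.76, 16.3 and 17.0 RPKM in the iPS clones, all above the feeders, and was higher by log2 1.36 ± 0.22 (adjusted p = 0.00045). Dcn read 76.5, 148, 51.2 and 60.1 RPKM, against 84.4, 71.1 and 85.7 in feeders. Lum read 22.1, 43.9, 15.7 and 15.9 RPKM, against 34.9, 28.6 and 38.0. For both, the iPS and feeder libraries overlapped, and SC2 was the only iPS clone above every feeder library. Without SC2 all 10 genes passed, where 87% of all genes did, with Dcn at log2 -0.37 (adjusted p = 0.0378) and Lum at -0.89 (adjusted p = 0.000473). The 8 genes called of 10 compare with 79.9% of all genes tested, and the 7 lower ones with 38.8% called lower. The median of all genes in the comparisons with feeders was shifted by log2 0.06 to 0.23, and rescaling the libraries to remove that shift reversed no direction named in the comparisons with feeders.

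At the other stages the number of genes away from the feeders varied. All comparisons with feeders share the same 3 feeder libraries. After 14 days SC clones had 6 genes lower (65.8% of all genes were called): Fn1, Tnc, Sparc, Bgn, Lox and Loxl1. At SC d21 these and Postn were lower and Gpc3 higher, 8 in all (74.5% of all genes). SC d22 also gave 8, with Dcn and Gpc3 higher and 6 lower (64.3%), and SC d23 gave 7 (62.3%), 6 of them lower. At SC d27 9 passed (75%), 8 of them lower, with Dcn alone outside the call.

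The SI clones gave few calls at d14, d22 and d23 and the most at d27. At SI d14 Fn1 and Lox were lower, 2 genes against 44.1% of all genes, but the count rests on single libraries. It was 0 without SI1 (29.6% of all genes), without SI4 (16.4%) or without any one feeder (0.964% to 1.21%). It was 5 without SI2 (55%) and 7 without SI3 (59.8%). At SI d21 7 passed (70.7% of all genes), 6 lower and Gpc3 higher, and all 10 without SI3 (79.1%). At SI d22 5 passed (54.1%), namely Fn1, Tnc, Lox and Loxl1 lower and Gpc3 higher. That count was 9 without SI3, where 73% of all genes passed. It was 2 without SI1 (40.7%), and 1 without SI2, SI4 or any one feeder (29% to 42.6%). At SI d27 all 10 passed (85.2%), 9 of them lower, where 34.6% of all genes were called lower. Without any one library 9 or 10 passed, where 81.5% to 86% of all genes did. There Sparc read 228, 211, 216 and 215 RPKM in SI1 to SI4, 20.9 ± 0.701% of feeders (log2 -2.25 ± 0.07, adjusted p = 1.27e-08). Gpc3 read 35.9, 34.3, 42.9 and 28.1 RPKM at SI d27, higher than feeders by log2 2.56 ± 0.12 (adjusted p = 1.06e-07).

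At SI d23, 2 days after doxycycline was taken away, 8 of the 10 genes overlapped the feeders, where 54.6% of all genes tested did. Only Postn and Gpc3 passed the test, 2 of 10 against 35.8% of all genes. Postn read 138, 120, 199 and 113 RPKM, against 52.2, 48.7 and 48.8 in feeders, and was higher by log2 1.46 ± 0.19 (adjusted p = 0.00416). Gpc3 read 8.17, 8.61, 7.81 and 5.99 RPKM, higher by 0.50 ± 0.12 (adjusted p = 0.0187). The 4 SI d23 libraries lay above the feeders in both genes. Without SI3, whose fibroblast marker ratio was 1.09, 7 genes passed, where 65.1% of all genes did. Fn1, Bgn, Lum, Lox and Loxl1 were then lower, by log2 -0.58, -0.83, -0.79, -0.60 and -0.80, and Postn stayed higher at 1.28 (adjusted p = 3.32e-06). Without any one feeder library 1 gene passed (5.58% to 12.4% of all genes).

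From d14 to d21, under continued doxycycline, the SC clones fell in 7 of the 10 genes (42.5% of all genes changed and 20.6% fell). Tnc, read at 1066, 818, 850 and 1206 RPKM at d14 and at 397, 308, 273 and 350 at d21, fell by 1.56 ± 0.17 on the log2 scale (adjusted p = 0.000357). Bgn, at 754, 507, 570 and 921 and then 286, 272, 220 and 246 RPKM, fell by 1.39 ± 0.19 (adjusted p = 0.000789). Lox, at 277, 185, 222 and 344 and then 87.0, 105, 92.7 and 56.6 RPKM, fell by 1.58 ± 0.23 (adjusted p = 0.001). In each of these 3 genes the groups did not overlap, and the share of all genes without overlap was not computed here. Fn1, Postn, Sparc and Loxl1 also fell, by 0.99 to 1.36. With each clone set against itself in the fit, Lum (log2 -0.79, adjusted p = 0.00458) and Gpc3 (1.08, adjusted p = 0.0171) passed as well, 9 of 10 where 46.1% of all genes did.

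The same step in SI clones gave no call, for any of the 10 or for any gene (0%). Of the 10, 1 reached an unadjusted p under 0.05 in limma, where 19.7% of all genes did, and none passed with clones as a block (0.0767%). Without SI3 at d21, 13.9% of all genes passed and still none of the 10. The SI clones differed widely at d14: Fn1 read 416, 1189, 1057 and 458 RPKM, and Dcn 23.4, 118, 139 and 48.1. The low clones were SI1 and SI4, at fibroblast marker ratios of 0.263 and 0.255, against 0.807 in SI2 and 0.725 in SI3. The part of these markers in the result was not tested. From d21 to d27 no gene of the 10 passed in either class, where 0.00847% of all genes passed in SC and 0% in SI. At an unadjusted p under 0.05 the counts were 1 of 10 in SC and 0 in SI, where 11.5% and 30.8% of all genes reached it. With clones as a block none passed in either class, where 11.3% of all genes passed in SC and 0% in SI. Without SI3 at d21, where 48.6% of all genes passed, Tnc (log2 1.04, adjusted p = 0.00523) and Loxl1 (0.37, adjusted p = 0.0169) passed in SI. Without any other single library none of the 10 passed in SI, and 0% of all genes did.

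Between d21 and d23, over 2 days without doxycycline, 8 of the 10 genes changed in the SI clones, with 7 higher at d23 and Gpc3 lower. None of the 12 groups was kept on doxycycline to d23, so withdrawal and time cannot be told apart in this comparison. Tnc rose from 142, 144, 614 and 262 RPKM in SI1 to SI4 to 1033, 1200, 1558 and 1134, by log2 2.34 ± 0.43 (adjusted p = 0.00224). Postn rose from 25.2, 26.6, 58.1 and 22.4 RPKM to 138, 120, 199 and 113, by 2.14 ± 0.30 (adjusted p = 0.000651). Lox rose from 99.95, 99.98, 218 and 109 RPKM to 406, 455, 665 and 436, by 1.94 ± 0.27 (adjusted p = 0.00064). In all 3 genes every d23 library was above every d21 library, and SI3 was the highest clone at both times. How many of all genes were set apart in this way was not computed. Fn1, Sparc, Loxl1 and Bgn rose by log2 1.82, 1.76, 1.63 and 1.42, with adjusted p from 0.000964 to 0.0065.

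Gpc3 went the opposite way, from 51.3, 64.1, 28.7 and 34.3 RPKM to 8.17, 8.61, 7.81 and 5.99, by log2 -2.34 ± 0.24 (adjusted p = 0.000185). The clones therefore kept 0.134 to 0.273 of their d21 level, and the groups did not overlap (share over all genes not computed). Dcn and Lum were higher at d23 than at d21 in 4 of 4 clones, by 1.70 to 2.83 times and 1.16 to 4.95 times, and neither passed. With each clone set against itself Dcn passed (log2 0.98, adjusted p = 0.00141) and Lum did not (adjusted p = 0.054), making 9 of 10. The 8 genes called compare with 54.6% of all genes, the 7 higher ones with 22.7% called higher, and the 9 of the paired fit with 63.4%. The median of all genes moved by log2 -0.12 in this step. Leaving out any one library left 8 or 9 genes called, where 44.6% to 62% of all genes passed.

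**Figure D2:**
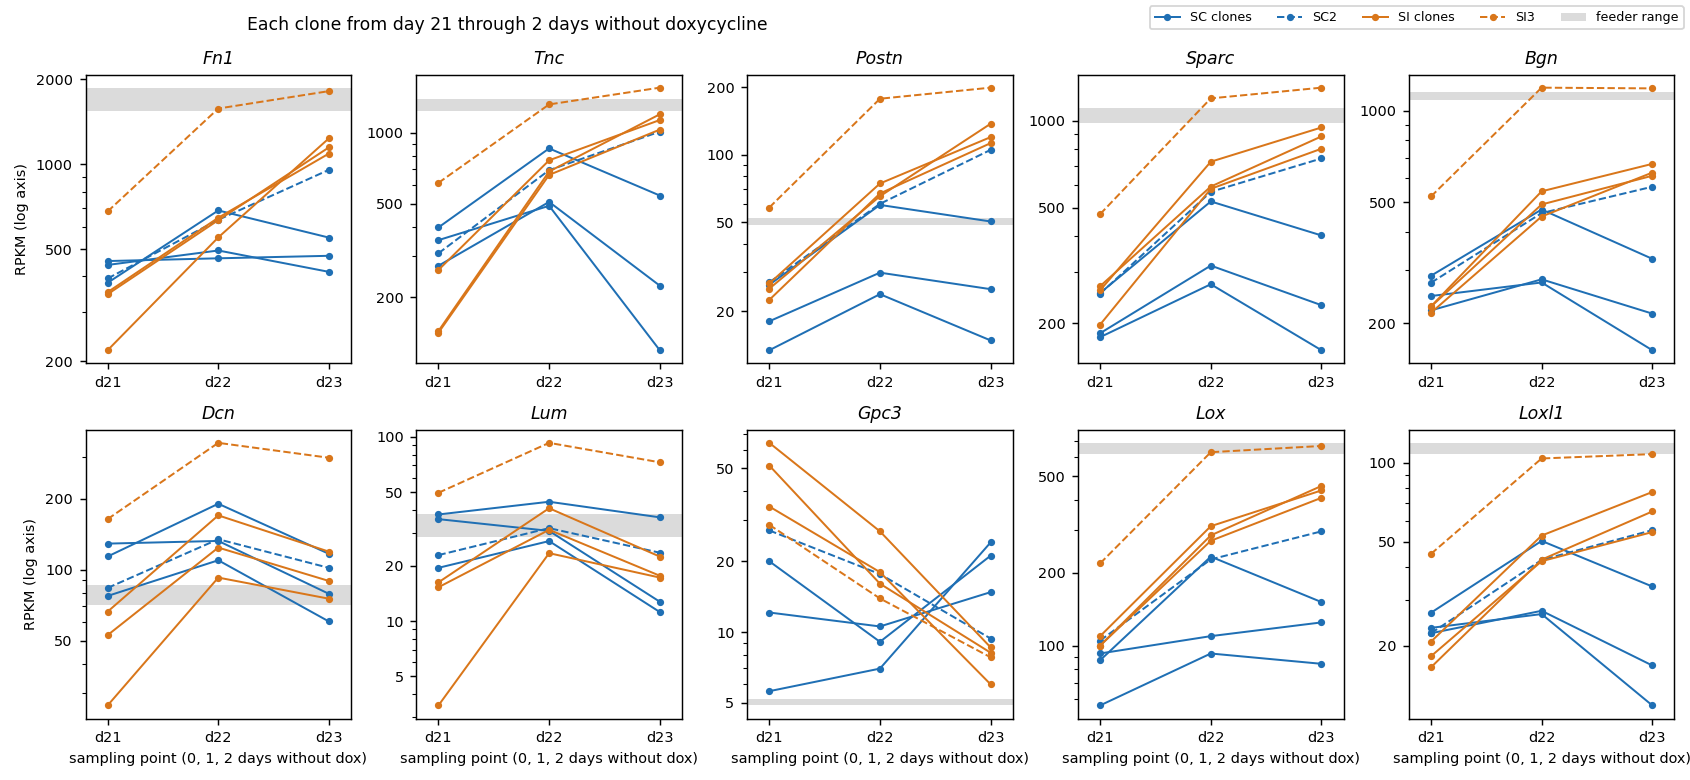
RPKM (log axis) of each gene at d21, d22 and d23; each line is 1 clone (SC blue, SI orange, dashed lines SC2 and SI3), and the grey band is the range of the 3 feeder libraries. SI clones lie above their d21 level at d22 in 9 genes and below it in Gpc3, and SC clones fan out between d22 and d23, with SC2 the highest SC clone at d23 in Fn1, Tnc, Postn, Sparc, Bgn, Lox and Loxl1.

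After 1 day without doxycycline the SI clones already lay away from d21 in all 10 genes, described here without a test. The share of all genes with such clone counts was not computed, so the counts cannot be read as particular to these genes. In SI clones the d22 level was above the d21 level in 4 of 4 clones for all 9 genes other than Gpc3, with mean ratios from 2.13 in Fn1 to 3.63 in Tnc. Fn1 stood at means of 399, 852 and 1323 RPKM at d21, d22 and d23. Between d22 and d23 the genes separated: Fn1, Tnc, Postn, Sparc, Lox and Loxl1 were higher again in 4 of 4 clones, and Bgn in 3. Dcn and Lum were lower at d23 than at d22 in 4 of 4 clones of each class, with mean ratios in SI of 0.776 ± 0.0767 and 0.658 ± 0.121 (SD, n = 4). Gpc3 stood at 0.436 ± 0.0924 of its d21 level on the first day and 0.431 ± 0.122 of its d22 level on the second. SC clones also lay above d21 at d22 in 4 of 4 clones for 8 of the 9 genes, and in 3 of 4 for Lum, with mean ratios of 1.21 to 1.99.

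At d23 the SC clones differed widely among themselves. Tnc read 542, 1012, 224 and 119 RPKM in SC1 to SC4, against 397, 308, 273 and 350 at d21, so SC2 stood at 3.29 times and SC4 at 0.340 times its own d21 level. Loxl1 read 33.7, 55.3, 16.8 and 11.8 RPKM at d23, and Sparc 402, 742, 231 and 161. Gpc3 ran in the reverse order, at 14.8, 9.39, 21.2 and 24.1 RPKM. The fibroblast marker ratio of these libraries was 0.315, 0.468, 0.136 and 0.0961, in the same order as Tnc, Sparc and Loxl1, and its part in the spread was not tested. None of the 10 passed between SC d23 and d21 (3.79% of all genes), and none reached an unadjusted p under 0.05 in limma, where 19.4% of all genes did. With each clone set against itself Lox alone passed (log2 0.81, adjusted p = 0.0469), where 13.4% of all genes did. Lox was above its d21 level in 4 of 4 clones, by 1.34 to 2.82 times.

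Compared with SI clones at the same time, SC clones differed at d23. There 7 of the 10 genes were lower in SC and Gpc3 was higher, 8 in all, with Dcn and Lum outside the call. Fn1 read 549, 956, 473 and 415 RPKM in SC clones and 1148, 1236, 1818 and 1092 in SI clones, a difference of log2 -1.19 ± 0.32 (adjusted p = 0.0282). Lox read 151, 296, 125 and 84.1 RPKM in SC and 406, 455, 665 and 436 in SI (log2 -1.70 ± 0.37, adjusted p = 0.0227). Postn read 50.3, 105, 25.1 and 14.8 RPKM in SC and 138, 120, 199 and 113 in SI (log2 -1.85 ± 0.53, adjusted p = 0.0305). In these 3 genes every SC library was below every SI library, with SC2 the closest. How many of all genes were set apart in this way was not computed. Gpc3 was higher in SC by log2 1.02 ± 0.27 (adjusted p = 0.0273).

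These calls came where 42.5% of all genes were called and 19.5% called lower, and they depended on having all 8 libraries. The count of 8 was 0 without any one of SC1, SC3, SC4, SI2, SI3 or SI4, 1 without SI1, and 8 without SC2. All genes followed: 0.0164% to 0.0755% passed without any one of those 6 libraries, 15% without SI1 and 65.3% without SC2. At d14, d21 and d22 none of the 10 passed between the classes, and 0% of all genes did at each of the 3 times. The counts at an unadjusted p under 0.05 in limma were 1, 1 and 4 of the 10, where 1.44%, 13.4% and 34.8% of all genes reached it. Without SC2 at d22, where 34.1% of all genes passed, Postn, Sparc, Gpc3 and Lox passed, lower in SC by log2 -1.30, -1.05, -0.97 and -1.39. Without any other single library at d22 none of the 10 passed, and 0% of all genes did. At d27 Gpc3 alone passed, lower in SC by log2 -1.44 ± 0.22 (adjusted p = 0.0428), where 0.634% of all genes did. It read 8.67, 18.1, 13.8 and 10.1 RPKM in SC against 35.9, 34.3, 42.9 and 28.1 in SI, with no overlap (share over all genes not computed). Without SC2 Gpc3 (adjusted p = 0.00503) and Sparc (log2 -0.36, adjusted p = 0.0131) passed at d27, where 23.9% of all genes did. Without any other single library at d27 none of the 10 passed, where 0% to 0.0172% of all genes did. Gpc3 thus stood lower in SC than in SI at d27 and higher at d23.

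**Figure D3:**
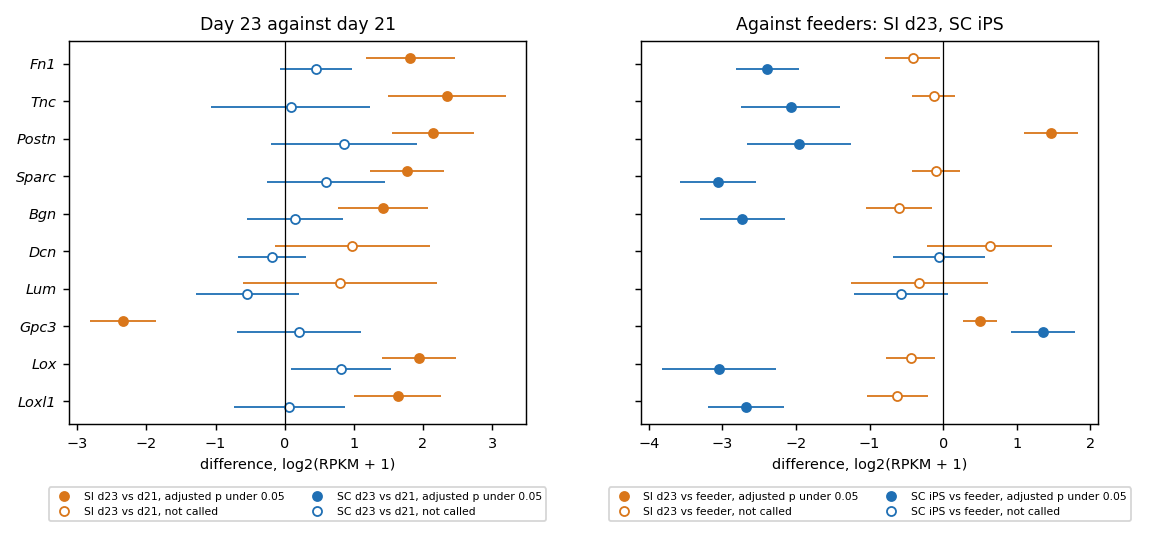
Fitted differences on the log2(RPKM + 1) scale with 95% intervals, filled where the adjusted p was under 0.05. Left, d23 against d21 in SI (orange) and SC (blue) clones: 8 SI points and no SC point are filled. Right, SI d23 (orange) and SC iPS (blue) against feeders: 2 and 8 points are filled.

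The difference between the classes in their d23 against d21 change was tested as an interaction. None of the 10 genes passed when libraries were taken as independent, and 0% of all genes did, while 7 of the 10 reached an unadjusted p under 0.05 in limma and 25.5% of all genes did. With each clone set against itself 9 of the 10 passed, all but Lum, where 23.2% of all genes did. In that fit the SC change minus the SI change was log2 -1.13 to -2.26 in 8 genes and 2.55 in Gpc3 (adjusted p from 0.0327 to 0.0403). Without SC2 at d23 the fit that took libraries as independent called 8 genes (32.2% of all genes), and without SI3 at d21 it called 4 (7.85%), Fn1, Tnc, Gpc3 and Loxl1. Without any other single library it called none of the 10, where at most 0.00778% of all genes passed.

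Between 2 and 6 days without doxycycline the SC libraries overlapped in all 10 genes, as they did in 83.5% of all genes tested. No gene of the 10 passed between iPS and d23 (1.4% of all genes), and 3 of them reached an unadjusted p under 0.05 in limma, where 21.8% of all genes did. With each clone set against itself 5 genes were lower in iPS: Postn by log2 -1.56, Sparc by -1.39, Lox by -0.90, Fn1 by -0.78 and Bgn by -0.74 (adjusted p from 0.0212 to 0.0339), where 16.1% of all genes passed. These 5 were lower in 4 of 4 clones. Fn1 stood at 0.504 to 0.641 of its d23 level and Postn at 0.223 to 0.548.

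Relative to the fibroblast markers the 10 genes separated into sets. Each gene's ratio to the feeder mean was divided by the median marker ratio of the same library, so that 1 means that gene and markers moved alike. Bgn stayed between 0.990 and 1.22 in every group mean and Loxl1 between 0.910 and 1.09. Dcn stood at 6.93 ± 0.754 in iPS cells (SD, n = 4) and 2.68 ± 0.772 at SI d23, and Lum at 4.75 ± 0.540 and 1.37 ± 0.458. High ratios were not particular to iPS. Means at SC d21, d22, d23 and d27 were 6.29, 6.05, 5.76 and 5.19 for Dcn. For Lum they were 4.24, 3.42, 2.81 and 3.15. Postn stood at 4.72 ± 0.865 at SI d23 and 1.75 ± 0.256 in iPS. Gpc3 ranged from 2.35 at SC d14 to 46.8 at SI d21. These ratios share a denominator and were chosen after the values were seen, and they are descriptions with no test.

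Sums of markers of other cells are given over the same step, with the feeders where these express them. From SI d21 to SI d23 the sum of 5 epithelial markers went from a range of 67.1 to 395 RPKM to one of 117 to 2247. The 4 smooth muscle markers went from 161 to 569 RPKM to 1465 to 2747, where the feeders read 2011 to 2198. The 5 macrophage markers went from 51.2 to 117 RPKM to 165 to 311, where the feeders read 166 to 179. Both sets were thus read in the feeder cultures too, and which cells carried them at SI d23 was not tested. The 4 endothelial markers went from 5.64 to 14.0 RPKM to 1.11 to 1.38, and the 7 pluripotency markers from 11.6 to 61.2 to 0.76 to 26.4. A sum can hide members that differ. Both named epithelial markers rose, Krt18 by log2 4.66 (limma, adjusted p = 0.00618) and Krt8 by 2.39 (adjusted p = 0.0447). Among macrophage markers Lyz2 rose by log2 1.77 (limma, adjusted p = 0.00299) and Cd68 gave no call (0.09, adjusted p = 0.819). Among pluripotency markers Nanog stood at log2 -3.69 (adjusted p = 0.00129) and Dppa5a at 1.38 without a call (adjusted p = 0.0843). The 4 Y-linked genes read 7.51 to 58.5 RPKM and then 17.1 to 42.1, and the 6 extraembryonic endoderm markers 1.74 to 7.24 and then 1.97 to 8.44. The ranges of the sums overlapped in both of these lists, as in the epithelial and pluripotency lists. None of the genes in these lists was at 0 in all libraries of SI d21 or of SI d23, and their part in the results for the matrix genes was not tested.

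**Figure D4:**
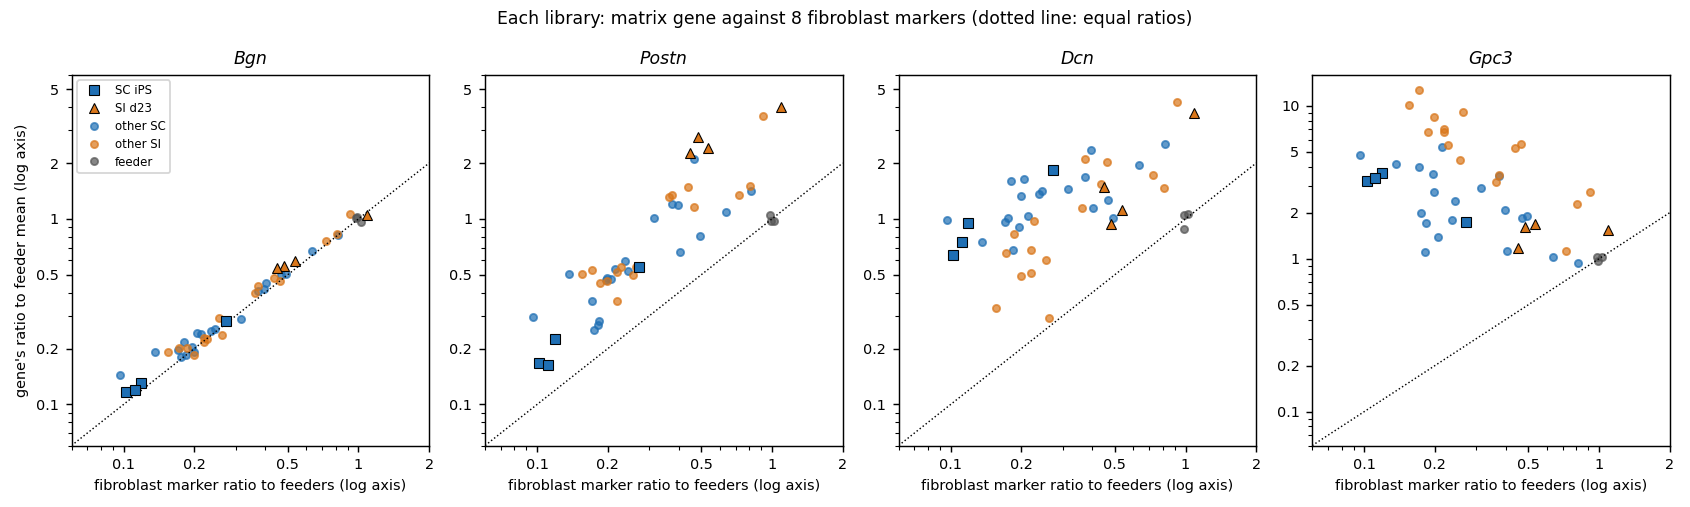
Each point is 1 library; the horizontal axis is the median ratio of 8 fibroblast markers to the feeder mean and the vertical axis the ratio of Bgn, Postn, Dcn or Gpc3 to its own feeder mean, both on log axes, with equal ratios on the dotted line. Bgn follows the line, Postn lies above it most at SI d23, Dcn lies above the line in all clone libraries, and Gpc3 is lower where the markers are higher.

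Over the 12 group means of log2(RPKM + 1), which share libraries and clones, Fn1, Tnc, Sparc, Bgn, Lox and Loxl1 correlated with each other at r = 0.912 to 0.996. Dcn and Lum correlated at 0.818, and Dcn with those 6 genes at 0.455 to 0.552. Gpc3 correlated negatively with all 9, from -0.333 with Postn to -0.745 with Tnc. When the 12 groups were ordered by mean level, neighbouring groups nearly always overlapped: 1 neighbouring pair was apart in each of Fn1, Postn and Sparc and none in the other 7 genes. The search covered the 9334 genes reaching 5 RPKM in a group mean, with the 10 themselves counted in that number and then left out. Those closest to Fn1 were Apol7d (0.998), Mrc2 (0.992) and Gpx7 (0.991). For Sparc they were Adamts2 (0.997), Col12a1 (0.995) and P4ha3 (0.992), and for Bgn Serpinf1 (0.999), Igfbp7 (0.997) and Bicc1 (0.994). For Tnc they were Arhgef40 (0.990), Dlg1 (0.989) and Sec31a (0.988), and for Postn Sec62 (0.984), Enpp1 (0.975) and Lrrc15 (0.974). Lox was closest to 1700088E04Rik (0.995), Rab31 (0.995) and Zfp503 (0.995), and Loxl1 to Angptl2 (0.997), Thy1 (0.995) and Serpinf1 (0.995). Dcn, Lum and Gpc3 had looser companions: Fam43a (0.889), Efr3a (0.886) and Dpt (0.874) for Dcn, C3 (0.873), Cfp (0.867) and Igsf10 (0.853) for Lum, and Rere (0.958), Igf2bp3 (0.912) and 2410003K15Rik (0.910) for Gpc3.

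Other matrix genes, taken by list, gave these counts, where 22.7% of all genes rose and 32% fell from SI d21 to d23. Of 23 other matrix glycoproteins tested, 19 rose and none fell from SI d21 to d23, with a median of log2 1.36 against -0.12 over all genes. Thrombospondin 1 (Thbs1) went from a mean of 399 ± 263 to 1742 ± 572 RPKM (log2 2.26, adjusted p = 0.00157), and osteopontin (Spp1) from 677 ± 337 to 1318 ± 396 (log2 1.05, adjusted p = 0.0369). Of 12 other proteoglycans 7 rose and none fell (median 1.04). Other glypicans were among them, Gpc4 at log2 1.72 (adjusted p = 0.000532) and Gpc1 at 1.72 (adjusted p = 0.000177), where Gpc3 fell.

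Of 12 cross-linking and collagen processing enzymes 10 rose and 2 fell (median 0.88). Loxl2, another lysyl oxidase, went from 70.0 ± 18.4 to 306 ± 34.9 RPKM (log2 2.14, adjusted p = 8.94e-05), above the feeder mean of 218 ± 4.61 RPKM, and the collagen chaperone Serpinh1 rose by 1.4 (adjusted p = 0.00177). Of 13 matrix receptors 10 rose and none fell (median 1.22), with the integrin subunits Itga5 at log2 2.63 (adjusted p = 6.65e-05) and Itgb1 at 2.08 (adjusted p = 0.00012). Of 10 basement membrane genes 3 rose and 1 fell (median -0.26), with perlecan (Hspg2) at 0.99 (adjusted p = 0.0108) and nidogen 1 (Nid1) at 198 ± 78.5 and 130 ± 24.9 RPKM and no call (adjusted p = 0.131).

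In iPS cells against feeders, 22 of 22 other glycoproteins, 12 of 12 enzymes, 11 of 12 proteoglycans and 13 of 14 receptors were lower, with 1 proteoglycan higher, where 38.8% of all genes were called lower. Of 10 basement membrane genes 6 were lower and 3 higher. Medians were log2 -2.22, -2.24, -2.34, -1.96 and -0.999 for the glycoproteins, enzymes, proteoglycans, receptors and basement membrane genes, against 0.06 over all genes. Between SC and SI at d23, 15 of 23 glycoproteins, 12 of 12 enzymes, 8 of 12 proteoglycans and 7 of 13 receptors were lower in SC and none higher. Of the basement membrane genes 3 of 10 were lower and 1 higher. Over all genes 19.5% were called lower and 23% higher. These list counts rest on having all libraries: without any one of SC1, SC3, SC4, SI2, SI3 or SI4 at most 0.0755% of all genes passed.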

How the data were processed

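The authors deposited 1 table of RPKM values, a column per library, made from Illumina TruSeq mRNA libraries per the labels' protocols. The unit was read from the values, since neither table nor labels name it. CASAVA 1.8 and mm9 are named, without a role, per the submitters' processing notes; aligner and annotation were not given in sources used here. Each comparison used only the libraries of its groups, in limma 3.58.1 (R 4.3.3; lmFit, eBayes with trend) of log2(RPKM + 1), over genes with at least 1 RPKM in a number of libraries equal to the smaller group's size. The two-sided p-values were Benjamini-Hochberg adjusted over all genes tested, and measure only the spread between these clones and feeder libraries. The test was run on simulated data with independent noise and the spread of SC and SI d27. The simulation held no repeated or deviating clones and no correlated genes, so it does not check the test under those conditions. Days of doxycycline came from the sample characteristics; the treatment text gives d22 and d23 differently. A second fit across times had the clone as a block, since libraries of 1 clone share its origin (27 of 28 same-clone pairs had deviations correlated above 0.1, range -0.355 to 0.914). The 10 genes, lists and comparisons were chosen with earlier results of these data known. Named list genes are the 2 with the highest feeder mean, and genes alike the 3 with the highest correlation among those reaching 5 RPKM in a group mean. Promoter windows, motifs, the quality minimum for depth steps and the ratio over fibroblast markers were chosen after values were seen. Python 3.11.15, numpy 2.4.6, pandas 2.3.3 and matplotlib 3.10.9 were used.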

Additional observations from a re-analysis of the deposited data

Results flagged for a closer look

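Single clones stood far from the other 3 of their group, by Dixon's gap over range on log2(RPKM + 1), in 11 of 110 groups of 4. For a single group of independent values chance gives about 1 in 20. The 110 reuse the same libraries for genes that correlate, so the flags are not independent and that rate cannot be set against their number. All came from libraries of clones SI3 and SC2, and the share over all genes was not computed. SI3 was high at d22 in Fn1 (1577 RPKM against 550 to 646), Postn (178 against 65.2 to 74.3) and Lox (627 against 270 to 311). It was high at d21 in Bgn (522 against 216 to 227) and Lox (218 against 99.95 to 109), and at d23 in Bgn (1186 against 611 to 669). SC2 was high among iPS libraries in Tnc (647 against 235 to 271), Sparc (212 against 99.4 to 105), Bgn (316 against 131 to 147) and Lox (188 against 54.4 to 61.5), and low in Gpc3 (8.76 against 16.3 to 18.3). The fibroblast marker ratio of SI3 was 0.464 at d21, 0.918 at d22 and 1.09 at d23, and that of SC2 iPS was 0.272; their part in these gaps was not tested.

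The d23 against d21 change differed between SC and SI clones in 9 genes in the fit with clones as a block, which is the fit behind these values. The differences, SC minus SI on the log2 scale, were -1.37 for Fn1, -2.26 for Tnc, -1.29 for Postn, -1.17 for Sparc, -1.27 for Bgn, -1.16 for Dcn, 2.55 for Gpc3, -1.13 for Lox and -1.56 for Loxl1. Without the block none of the 10 passed.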

How the results depend on the processing

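Alternatives were a pseudocount of 0.1 RPKM, all genes kept whatever their level, libraries rescaled to a common median, the replicate block and leaving out each library. Of 240 fitted differences, 85 were under 1.5-fold and not called with or without the block; 37 of these changed sign without some library and 5 also under another setting, and 9 were called under some setting. After that was seen they were left out of the comparison of settings, and in the text their differences are given only where leaving out a library ended in a call. None of the other 155 changed sign. Without the filter, the genes called numbered 4 at SC d23 against feeders (7 with it), 0 at SI d14 (2), 2 at SI d22 (5), 4 between SC and SI at d23 (8) and 0 at d27 (1). In the same order 46.1%, 21.6%, 37.4%, 21.8% and 0% of all genes passed without the filter. Rescaling gave 4 at SI d14 (49.8% of all genes). The pseudocount changed no count by more than 1.5 times.

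With the replicate block the count was 1 for SC d23 against d21 (13.4% of all genes), 5 for iPS against SC d23 (16.1%) and 9 for the class difference (23.2%). In these comparisons clones pair the libraries. Replicate numbers do not pair SC with SI (4 of 20 same-number correlations above 0.1, range -0.759 to 0.268) or clones with feeders. There the block gave 0 at SI d14 (4.6% of all genes), 1 at SI d22 (26.2%) and 1 at SI d23 (3.3%). It gave 3 and 0 for SC against SI at d23 and d27 (20.1% and 0%), and changed no other count by more than 1.5 times.

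With each library left out in turn, the count against feeders ran from 0 to 7 at SI d14, where 0.964% to 59.8% of all genes passed. It ran from 1 to 9 at SI d22 (29% to 73%) and 1 to 7 at SI d23 (5.58% to 65.1%). For SC against SI the count was 0 to 4 at d22 (0% to 34.1%), 0 to 8 at d23 (0.0164% to 65.3%) and 0 to 2 at d27 (0% to 23.9%). For SI d27 against d21 it was 0 to 2 (0% to 48.6%), and for the class difference 0 to 8 (0% to 32.2%). In the other 16 comparisons it stayed within 1.5 times.

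Over all genes, rescaling moved the split of calls most at SI d14 against feeders, from 3767 higher and 1413 lower to 2911 and 2928, and for iPS against SC d23, from 34 and 131 to 207 and 217. The number of clones, 4 a class, limits the precision.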
